A study of Mus musculus with 18 samples.

Results

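The genes followed here serve fatty acid oxidation, and were measured in the epithelium of the mouse ileum, the last stretch of the small intestine. They are Cpt1a, Acadl, Acadm, Ehhadh, Cyp4a10, Acot1, Pdk4 and Angptl4. The 8 genes were listed by name, as enzymes of fatty acid oxidation and as known targets of the peroxisome proliferator-activated receptors (PPARs), by a choice made with earlier results of these data known. They make up 8 of the 47729 genes in the count tables. Of these, 7 had enough counts to be tested, and Cyp4a10 did not. Epithelial cells had been isolated by fluorescence-activated cell sorting, and their polyadenylated RNA was sequenced in bulk. Lactating females were taken at day 7 of lactation and gave 6 libraries, age-matched virgin males gave 6 and age-matched virgin females gave 6, which makes 18 in all. All mice received RM3 chow while breeding and RM1 chow for maintenance and experiment. The sources used here name no strain, age in weeks or sorting gate.

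Long-chain fatty acids enter mitochondria as carnitine esters, and carnitine palmitoyltransferase catalyses the step at which this entry is regulated. Inside, acyl-CoA dehydrogenases start each round of beta-oxidation, while very long chains are first shortened in peroxisomes and a minor route starts at the omega end of the chain. PPARs are nuclear receptors that bind fatty acids and, paired with a retinoid X receptor, switch on many of these genes, and in the small intestine PPARα is known for its response to dietary fat. In liver, the acetyl-CoA formed can be turned into ketone bodies, which other tissues burn.

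Only Acadl, the long-chain acyl-CoA dehydrogenase, passed the test, and only in lactating females against virgin males, where it was 1.67-fold higher. Lactating females and virgin males differ in sex as well as in lactation, and their comparison cannot tell these apart. Angptl4 and Pdk4 had larger differences between the same groups but a wider spread, and did not pass. Against virgin females, lactating females showed no called difference in any of the 7 tested genes. Virgin males lay below the virgin female mean in 6 of 6 libraries for Acadl, Acot1, Angptl4, Ehhadh and Pdk4, and above it in 6 of 6 for Cpt1a, again with none called. For Pdk4 and Angptl4 a single high library raised that mean, and virgin males overlapped virgin females in each of these genes. The share of all genes with such a count was not computed.

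The counts of 2 of the 8 genes are less certain than the rest, because near-identical copies lie beside them in the genome. The coding sequence of Acot1 was identical to that of Acot2 at 95.2% of 1239 aligned bases, and that of Cyp4a10 was identical to that of Cyp4a32 at 97.2% of 1530. The windows of 60 coding bases in which each pair differs most show how far apart the copies get. They are given 5′ to 3′ from the GENCODE M21 transcripts (GRCm38), with the bases that differ within a pair in capitals. Acot1 is shown from coding base 823 to 882 and Acot2 from 946 to 1005, with 13 differences, and both Cyp4a genes from 200 to 259, with 9 differences.
Acot1: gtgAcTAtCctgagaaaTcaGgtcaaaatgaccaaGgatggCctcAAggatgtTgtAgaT
Acot2: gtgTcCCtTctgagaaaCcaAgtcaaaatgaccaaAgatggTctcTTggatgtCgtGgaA
Cyp4a10: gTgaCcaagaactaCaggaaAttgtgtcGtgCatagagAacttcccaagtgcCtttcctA
Cyp4a32: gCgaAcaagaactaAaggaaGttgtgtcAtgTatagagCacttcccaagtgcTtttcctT

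Of all stretches of 50 bases in the transcripts of Acot1, 19.2% also occurred in another gene's transcripts, and of those of Cyp4a10, 29.8%. The share was 2.04% for Acadm, 1.4% for Pdk4 and 0.851% for Cpt1a. It was 0 for Acadl, Angptl4 and Ehhadh. Acadl overlaps the pseudogene Gm15793 on the same strand, which had 665 counts over the 18 libraries against 71933 for Acadl. The protein products of Acadl and Acadm belong to the same enzyme family, but their coding sequences were identical at only 58.4% of the aligned bases and share no 50-base stretch.

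PPARs bind a direct repeat of AGGTCA, that is AGGTCA, a spacer of 1 base of any kind, and AGGTCA again. RefSeq promoter sequences (GRCm38.p6) were at hand for 6 of the 8 genes. In the 250 bases before each start, both strands were searched for the closest match to the 12 fixed bases, and matches may overlap one another. The best match of each gene is shown as it reads 5′ to 3′ on the gene's strand, with the bases that fit the repeat in capitals. For Acadm and Acot1 the repeat runs on the opposite strand, so that it reads TGACCT, any base, TGACCT.
Acadm: TGACCTtcGggCT
Cpt1a: ttGTCctAGGTCt
Pdk4: AGccCAaAGtTCt
Ehhadh: AGtgCAagGGgCA
Acot1: TGtgCTtTGAttT
Acadl: AGGggAggGcgCA

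The Acadm site lies at chr3:153944880-153944892 and had 3 mismatches, a closeness that 21.3% of 32851 mouse promoters reached or bettered. Cpt1a, Pdk4, Ehhadh and Acot1 had 4 mismatches, as did 74.5% of promoters or better, and Acadl had 5, a level that 99.6% of promoters met. The sites are therefore a description of letters in these windows, no closer than those of most promoters except in Acadm. The whole window of Acadl, the called gene, is printed with its best match in capitals, on the minus strand of chr1:66863310-66863559.
Acadl promoter: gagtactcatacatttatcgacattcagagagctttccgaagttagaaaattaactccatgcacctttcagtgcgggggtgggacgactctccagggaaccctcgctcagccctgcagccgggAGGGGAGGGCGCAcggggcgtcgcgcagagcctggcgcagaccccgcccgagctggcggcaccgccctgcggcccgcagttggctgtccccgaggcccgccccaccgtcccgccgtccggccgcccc

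The libraries held 34577104 to 49039300 counts. Absorptive enterocyte markers were high in all 18 libraries, with a summed level of 17200 to 70770 CPM (counts scaled to library size) for 10 markers. Secretory cells were present too, with 7 goblet cell markers summing to 4050 to 18470 CPM and 6 Paneth cell markers to 918.8 to 12480 CPM. Of cells outside the epithelium, 6 macrophage markers summed to at most 44.9 CPM, most of it Lyz2, 5 endothelial markers to at most 7.17 CPM, 7 T cell markers to at most 5.51 CPM, 5 B and plasma cell markers to at most 2.43 CPM, 5 smooth muscle markers to at most 0.614 CPM, 6 fibroblast markers to at most 0.534 CPM and 6 adipocyte markers to at most 0.205 CPM. Libraries differed in their place on the crypt to villus axis. The enterocyte score, the mean log2 CPM of those 10 markers, was 11.2 ± 0.413 in lactating females, 10.6 ± 0.324 in virgin males and 11.1 ± 0.564 in virgin females (SD, n = 6 each). The score of 20 cell cycle genes was 4.60 ± 0.62 in lactating females, 4.98 ± 0.164 in virgin males and 4.53 ± 0.58 in virgin females. Virgin female 2 and virgin male 6 stood apart from the others in Gm42418, a transcript that overlaps ribosomal RNA, at 31050 and 29980 CPM against 1230 to 4477 CPM elsewhere.

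Compared per length, as RPKM (CPM per kilobase of exon, mean of the 18 libraries), Acadl was the most abundant of the 8 at 47.8 RPKM, followed by Acadm at 39.6, Ehhadh at 36.4, Cpt1a at 23.9, Angptl4 at 13.9 and Pdk4 at 10.4 RPKM. Acot1 was at 0.90 RPKM and Cyp4a10 at 0.0728 RPKM. The order was not the same within each group. In lactating females Acadl averaged 59.8 ± 13.5 RPKM and Acadm 37.5 ± 4.95 RPKM, in virgin males Acadl averaged 35.7 ± 3.0 and Acadm 39.5 ± 3.37 RPKM, and in virgin females Acadl averaged 47.8 ± 8.09 and Acadm 41.9 ± 7.24 RPKM. Pdk4 ran over an 81.5-fold range across the 18 libraries, Angptl4 over 6.32-fold, Acot1 over 3.19-fold, and the other 4 tested genes over 1.71-fold (Acadm) to 2.64-fold (Acadl). The levels that follow are CPM scaled between libraries, and the differences are log2 fold changes from the fit across all genes.

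**Figure D1:**
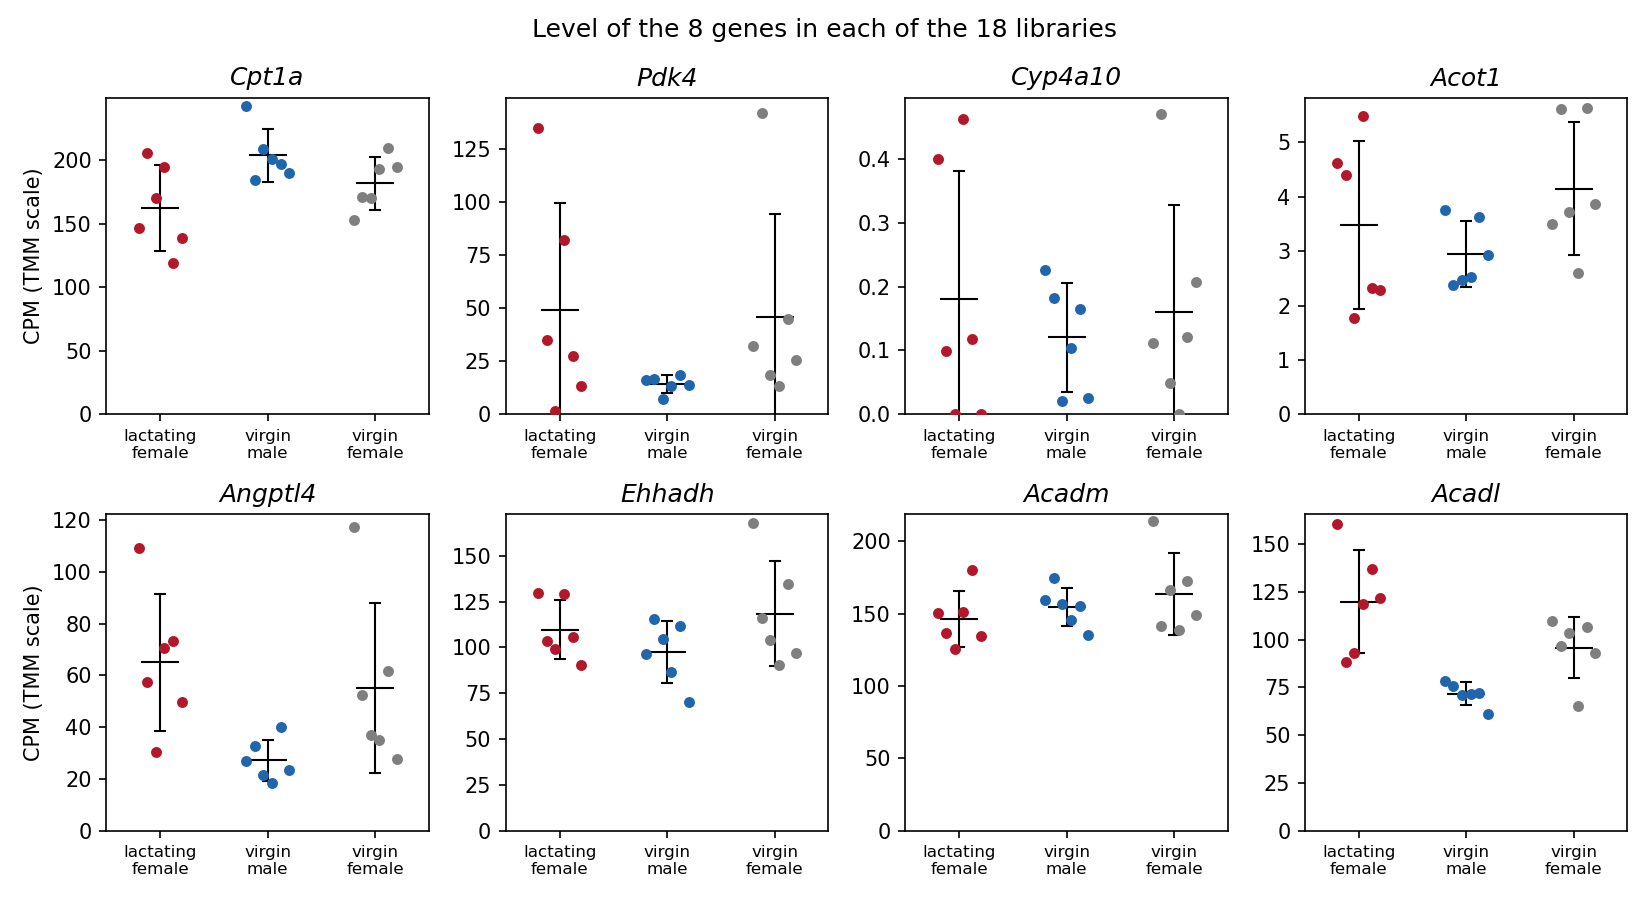
Level of each of the 8 genes in CPM (linear axis from 0) in the 6 lactating female, 6 virgin male and 6 virgin female libraries, with the mean and SD (bars that would pass under 0 are cut there). Acadl in the lactating females, from 88.3 to 160.6 CPM, lies wholly above the virgin males, from 60.8 to 78.4 CPM, and Pdk4 and Angptl4 show a few high libraries in both female groups.

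Cpt1a encodes the carnitine palmitoyltransferase of the outer mitochondrial membrane, the gate of long-chain fatty acids. The gene lies on the plus strand at chr19:3322334-3385733 (GRCm38, as are all gene positions here). Its level ran from 119 to 206 CPM (median 158) in lactating females, 184 to 243 CPM (median 199) in virgin males and 153 to 209 CPM (median 182) in virgin females. The groups overlapped, and the lactating females reached lower than either virgin group. Cpt1a averaged 162 ± 33.6 CPM in lactating females, against 204 ± 20.8 CPM in virgin males (SD, n = 6 each), a log2 fold change of -0.33 (SE 0.13, adjusted p = 0.236), with 5 of 6 lactating libraries under the male mean. Against the virgin female mean of 182 ± 20.7 CPM, the difference was -0.16 in lactating females (SE 0.13, adjusted p = 0.912) and 0.17 in virgin males (SE 0.13, adjusted p = 0.613). None of these passed the test.

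Acadl, the dehydrogenase for long-chain acyl-CoA, lies on the minus strand at chr1:66830839-66863277. It had 88.3, 120 and 160.6 CPM as its lowest, median and highest level in lactating females, 60.8, 71.8 and 78.4 CPM in virgin males, and 65.2, 100.2 and 109.9 CPM in virgin females. Every lactating female lay above every virgin male, while the virgin females overlapped both other groups. Lactating females and virgin males did not overlap, in either direction, in 1.34% of the genes tested. Lactating females 1, 4, 5 and 6 also exceeded all 6 virgin females. Acadl averaged 119.8 ± 27.1 CPM in lactating females, against 71.6 ± 6.02 CPM in virgin males, a log2 fold change of 0.74 (SE 0.14, 95% interval 0.44 to 1.04, adjusted p = 0.0137). It was the only called gene among the 7 tested, in a comparison that called 0.764% of the 15572 genes tested, 98 higher and 21 lower. Nothing in the labels ties each library to its own animal, and the p-values here therefore cover the spread between libraries, which may be technical.

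Against the virgin females, at 95.8 ± 16.2 CPM, Acadl stood at 0.32 in lactating females (SE 0.14, adjusted p = 0.732) and at -0.42 in virgin males (SE 0.14, adjusted p = 0.565), neither called. These 3 comparisons share samples and are not independent of each other. The call between lactating females and virgin males was lost without virgin male 6, the lowest library, by a small margin (0.70, adjusted p = 0.0502), and without virgin female 2 and virgin male 6 together (0.70, adjusted p = 0.0668). It was also lost with the enterocyte score in the fit, where the difference was 0.43 (adjusted p = 0.0833), and kept with the cell cycle score in the fit, at 0.55 (adjusted p = 0.00287). In bulk libraries fewer cells of a type and less RNA per cell cannot be told apart.

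**Figure D2:**
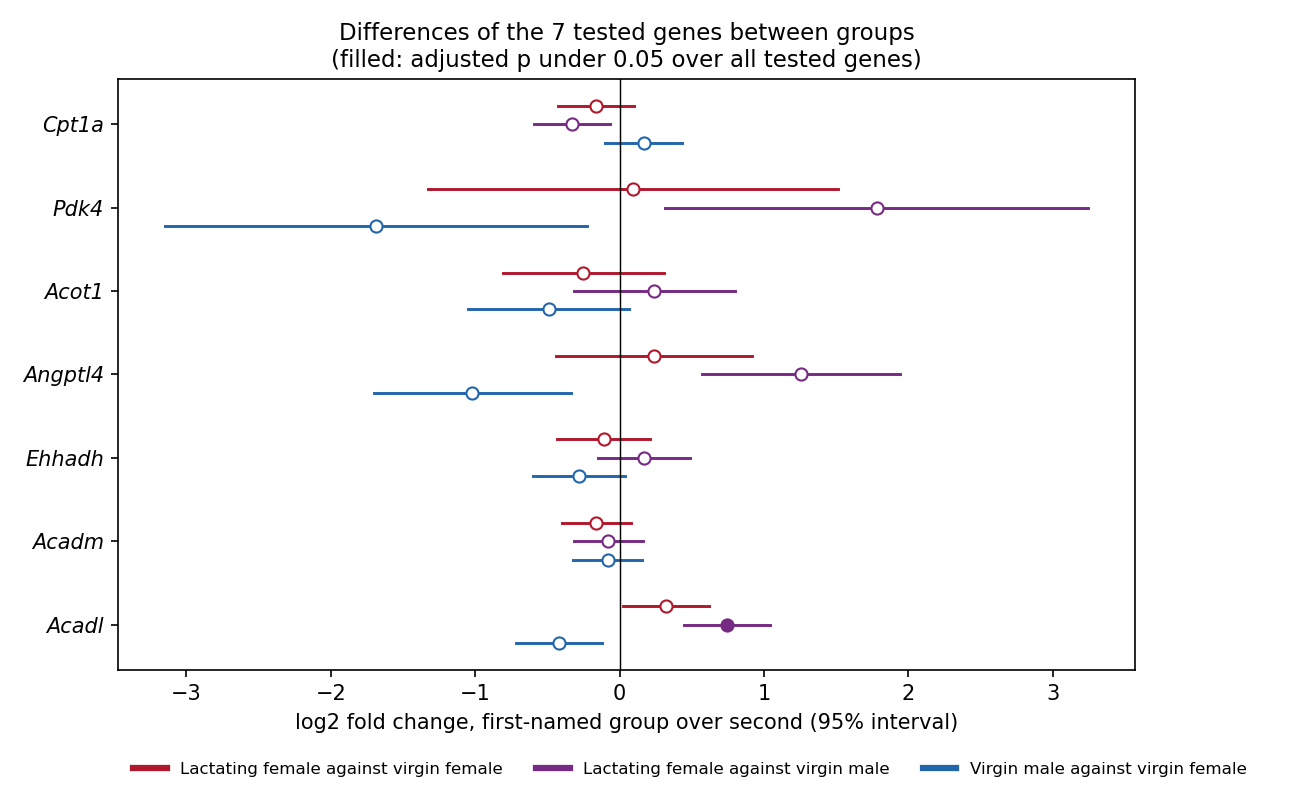
Log2 fold change of the 7 tested genes, first-named group over second, with its 95% interval, for lactating females against virgin females, lactating females against virgin males and virgin males against virgin females. The filled point is Acadl in lactating females against virgin males, at 0.74, and all other points are open (adjusted p of 0.05 or more); the intervals of Pdk4 are the widest.

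Acadm, the medium-chain acyl-CoA dehydrogenase (chr3:153922357-153944632, minus strand), differed little between groups. It ranged from 126 to 181 CPM in lactating females, 136 to 175 CPM in virgin males and 139 to 214 CPM in virgin females, so the groups overlapped almost fully. Its differences were -0.16 in lactating females against virgin females, -0.08 in lactating females against virgin males and -0.08 in virgin males against virgin females, with an SE of 0.11 in each and adjusted p-values of 0.911, 0.721 and 0.778. The 95% intervals, -0.40 to 0.08, -0.32 to 0.16 and -0.32 to 0.16, leave out a change as large as that of Acadl between lactating females and virgin males.

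The wider set of mitochondrial beta-oxidation enzymes held 15 listed genes, all tested. Acadl was called higher in lactating females against virgin males, and no other gene of the set was called in any comparison. The list's median log2 fold change was 0.00779 for lactating females against virgin males, -0.141 for lactating females against virgin females and -0.0834 for virgin males against virgin females, beside -0.00844, -0.00261 and -0.013 over all tested genes. Etfb, a subunit of the flavoprotein that takes up electrons from the dehydrogenases, had the next largest difference, at 21.1 ± 10.1 CPM in lactating females, 13.7 ± 2.30 CPM in virgin males and 14.7 ± 4.54 CPM in virgin females. Its log2 fold change was 0.62 against virgin males (SE 0.25, adjusted p = 0.249). Hadha and Hadhb, the subunits of the trifunctional protein that completes the cycle on long chains, were at -0.25 (SE 0.11) and -0.23 (SE 0.12) in virgin males against virgin females, both with an adjusted p of 0.565.

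In the carnitine shuttle, 0 of 9 listed and tested genes were called in any comparison. Cpt2, the inner membrane transferase, averaged 134.9 ± 14.8 CPM in lactating females, against 110.2 ± 14.1 CPM in virgin males, with 6 of 6 lactating libraries above the male mean (0.29, SE 0.13, adjusted p = 0.3). Crat and Slc25a20, the carnitine acetyltransferase and the carnitine carrier, were at -0.47 (SE 0.17) and -0.45 (SE 0.19) in virgin males against virgin females, both with an adjusted p of 0.565. Over the 28 alternative settings tried, the difference ran from -0.56 to -0.13 for Crat and from -0.55 to 0.010 for Slc25a20.

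Ehhadh, the peroxisomal bifunctional enzyme (chr16:21761287-21787807, minus strand), had 90.5, 105 and 129.6 CPM as its lowest, median and highest level in lactating females, 70.2, 100.5 and 116 CPM in virgin males, and 90.6, 110.2 and 168 CPM in virgin females. The groups overlapped, and virgin female 1 was the highest library and virgin male 6 the lowest. The log2 fold changes were -0.11 in lactating females against virgin females, 0.17 in lactating females against virgin males and -0.28 in virgin males against virgin females (SE 0.15 in each, adjusted p = 0.959, 0.554 and 0.565).

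Of the 15 listed genes of peroxisomal oxidation, 14 were tested. Of these, 0 were called in any comparison, but all 14 were above 0 in lactating females against virgin males (median 0.311) and all 14 below 0 in virgin males against virgin females (median -0.343), in contrasts that share the virgin males. Over all tested genes, 48.9% and 48% were above 0 in the same comparisons. Between lactating and virgin females 3 of the 14 were above 0, beside 49.4% of all genes, and this count moved with single libraries: it was 9 without virgin female 1, 8 without lactating female 2 and 1 without lactating female 1. With the cell cycle score in the fit, 10 of the 14 were above 0 in lactating females against virgin males, 10 were below 0 in virgin males against virgin females and 6 were above 0 in lactating against virgin females. With the enterocyte score in the fit, 5 of the 14 were above 0 in lactating females against virgin males (median -0.113), and 6 of the 14 were below 0 in virgin males against virgin females (median 0.00899). Pex11a, which takes part in peroxisome division, was at -0.38 (SE 0.12) in virgin males against virgin females and Crot, the peroxisomal carnitine octanoyltransferase, at -0.62 (SE 0.24), both with an adjusted p of 0.565. Acaa1b, a peroxisomal thiolase, was at 0.85 (SE 0.29, adjusted p = 0.191) in lactating females against virgin males.

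Cyp4a10, an omega-hydroxylase that is a classic PPARα target in mouse liver (chr4:115518264-115533649, plus strand), was close to absent. It had counts of 15, 5, 0, 20, 4 and 0 in lactating females, 10, 9, 1, 5, 7 and 1 in virgin males, and 4, 16, 2, 0, 5 and 10 in virgin females. The sums were 44, 33 and 37 counts, and 6 of the 18 libraries were at or under 3 counts, the floor, which corresponds to 0.0612 to 0.0868 CPM. It was left out by the filter on low counts, and a difference between groups was not detectable at this depth. Its relatives were lower still, with 14 counts over all libraries for Cyp4a32, 6 for Cyp4a14, 4 for Cyp4a31, 1 for Cyp4a12a and 0 for Cyp4a12b. The ileal epithelium instead held Cyp4f14, another omega-hydroxylase, at 1266 ± 336 CPM in lactating females, 972 ± 218 CPM in virgin males and 1395 ± 523 CPM in virgin females, with no called difference.

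Acot1 encodes the cytosolic thioesterase that releases free fatty acids from long-chain acyl-CoA, at chr12:84009490-84018371 on the plus strand. It was low, from 1.76 to 5.48 CPM (median 3.36) in lactating females, 2.38 to 3.76 CPM (median 2.73) in virgin males and 2.60 to 5.62 CPM (median 3.79) in virgin females. All groups overlapped, and lactating female 3 was the lowest of the 18 libraries. The differences were -0.25 in lactating females against virgin females, 0.24 in lactating females against virgin males and -0.49 in virgin males against virgin females (SE 0.27 in each, adjusted p = 0.937, 0.628 and 0.565). Its near-identical copy Acot2 had 5617 counts in all libraries against 2687 for Acot1, and differences of -0.19, 0.27 and -0.45 in the same order. Acot3 and Acot5, with 146 and 199 counts, were not tested.

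Among 11 tested genes of omega-oxidation and the thioesterases, 0 were called. Acot12, a thioesterase that prefers acetyl-CoA, had the largest difference of any listed gene between lactating females and virgin males. Its level ran from 13.5 to 163 CPM (median 42.7) in lactating females, 5.2 to 24.2 CPM (median 18.5) in virgin males and 16.7 to 76.0 CPM (median 42.6) in virgin females. The difference was 1.84 against virgin males (SE 0.50, adjusted p = 0.103), with lactating female 1 far above the rest. Over the 28 alternative settings it ran from 0.65 to 2.05 and was called in 2. Acot4 and Acot9, a peroxisomal and a mitochondrial thioesterase, were at 0.87 (SE 0.27, adjusted p = 0.159) and 0.57 (SE 0.17, adjusted p = 0.134) in the same comparison, with 6 of 6 lactating libraries above the male mean for both.

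Pdk4 encodes the pyruvate dehydrogenase kinase that shuts pyruvate out of the citric acid cycle when fatty acids are burned, and lies on the minus strand at chr6:5483351-5496309. Its CPM values were 135, 34.9, 1.74, 82.4, 27.5 and 13.1 in lactating females, 16.3, 16.8, 7.05, 13.3, 18.5 and 13.8 in virgin males, and 32.1, 142, 18.5, 13.6, 44.9 and 25.6 in virgin females. The males were low and alike, while each female group held libraries at the male level and libraries several-fold above it. Lactating female 3, at 1.74 CPM, lay below every male and was the lowest of the 18 libraries. Lactating females averaged 49.1 ± 50.4 CPM, virgin males 14.3 ± 4.04 CPM and virgin females 46.1 ± 48.2 CPM. The difference was 1.78 in lactating females against virgin males (SE 0.70, 95% interval 0.32 to 3.25, adjusted p = 0.243) and -1.69 in virgin males against virgin females (SE 0.70, adjusted p = 0.565). Between lactating and virgin females it was 0.09 (SE 0.68, adjusted p = 0.994), with an interval from -1.32 to 1.51. Without virgin female 2, the library at 142 CPM that also stood apart in Gm42418, this difference was 0.87 and that of virgin males against virgin females was -0.91, and without lactating female 1 the difference from virgin females was -0.53 and that from virgin males 1.16. With the enterocyte score in the fit, the difference between lactating females and virgin males was 0.71 (adjusted p = 0.958).

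Around Pdk4, 11 genes of the pyruvate dehydrogenase complex, its kinases and its phosphatases were tested. Pdp1, a phosphatase that reactivates the complex and so works against the kinases, was called higher in lactating females, at 7.76 ± 1.68 CPM, against 4.71 ± 0.82 CPM in virgin males (0.72, SE 0.17, adjusted p = 0.0488). The lactating libraries ran from 5.96 to 10.6 CPM and the virgin males from 3.64 to 5.82 CPM, so the groups did not overlap, as in 1.34% of all genes tested. This call was kept in 8 of 28 alternative settings, with adjusted p-values from 0.0035 to 0.287. The 8 were DESeq2's size factors and Wald test, the filter of 1 CPM in 6 libraries, limma-voom, and the fits without lactating female 3 or virgin female 1, 4 or 5. Pdk2 and Pdk3, other kinases of the complex, were at 0.61 (SE 0.20) and 0.40 (SE 0.13) in lactating females against virgin males, both with an adjusted p of 0.186 and 6 of 6 lactating libraries above the male mean.

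Angptl4, a secreted inhibitor of lipoprotein lipase (chr17:33773750-33781830, minus strand), ran from 30.5 to 109.1 CPM (median 64.0) in lactating females, 18.6 to 40.1 CPM (median 25.2) in virgin males and 27.6 to 117 CPM (median 44.7) in virgin females. Of the 6 lactating libraries, 5 were above every virgin male, and only lactating female 3 fell within the male range. The mean in lactating females was 65.1 ± 26.6 CPM, against 27.2 ± 8.0 CPM in virgin males, a log2 fold change of 1.26 (SE 0.33, 95% interval 0.57 to 1.94) that missed the threshold at an adjusted p of 0.0887. It passed in 7 of 28 alternative settings, with adjusted p-values between 0.0097 (DESeq2's Wald test, 1.27) and 0.503 (the enterocyte score in the fit, 0.60) over all of them. Without lactating female 3 it passed at 1.402 (adjusted p = 0.0364) and without virgin female 1 at 1.26 (adjusted p = 0.0296). Virgin males were at -1.02 against virgin females, whose mean was 55.2 ± 32.9 CPM (SE 0.33, adjusted p = 0.565), and at -0.65 without virgin female 1. Lactating females differed from virgin females by 0.24 (SE 0.32, adjusted p = 0.958). RNA of Lpl, the gene of lipoprotein lipase, was nearly absent from the sorted cells. It was at 0.219 ± 0.115 CPM in lactating females, 0.217 ± 0.10 CPM in virgin males and 0.112 ± 0.0691 CPM in virgin females. Angptl4 is secreted, and Lpl in cells outside the sorted epithelium was not measured. Of 5 tested genes among lipoprotein lipase and its regulators, 0 were called.

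Beside the background, and with nothing read from the shares since the genes were chosen with earlier results known, the 7 tested genes gave 1 call, a higher one, where 0.764% of all genes were called between lactating females and virgin males, 0.629% higher and 0.135% lower. At an unadjusted p under 0.05 this comparison held 3 of the 7 higher (Acadl, Angptl4 and Pdk4) and 1 lower (Cpt1a), beside 15.9% of all genes, 10.5% higher and 5.4% lower. In virgin males against virgin females 0 of 7 were called, beside 0.0835% of all genes, 0.045% higher and 0.0385% lower. There 3 of the 7 (Acadl, Angptl4 and Pdk4) were lower at an unadjusted p under 0.05, beside 8.32% of all genes, 2.3% higher and 6.02% lower, and 0 of 7 had groups that did not overlap, beside 0.43%. In lactating females against virgin females 0 of 7 were called, beside 0.0578% of all genes, 0.0385% higher and 0.0193% lower. Acadl alone had an unadjusted p under 0.05, beside 6.44% of all genes, 3.4% higher and 3.04% lower. The median log2 fold change of the 7 was 0.241 in lactating females against virgin males, -0.42 in virgin males against virgin females and -0.111 in lactating against virgin females.

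**Figure D3:**
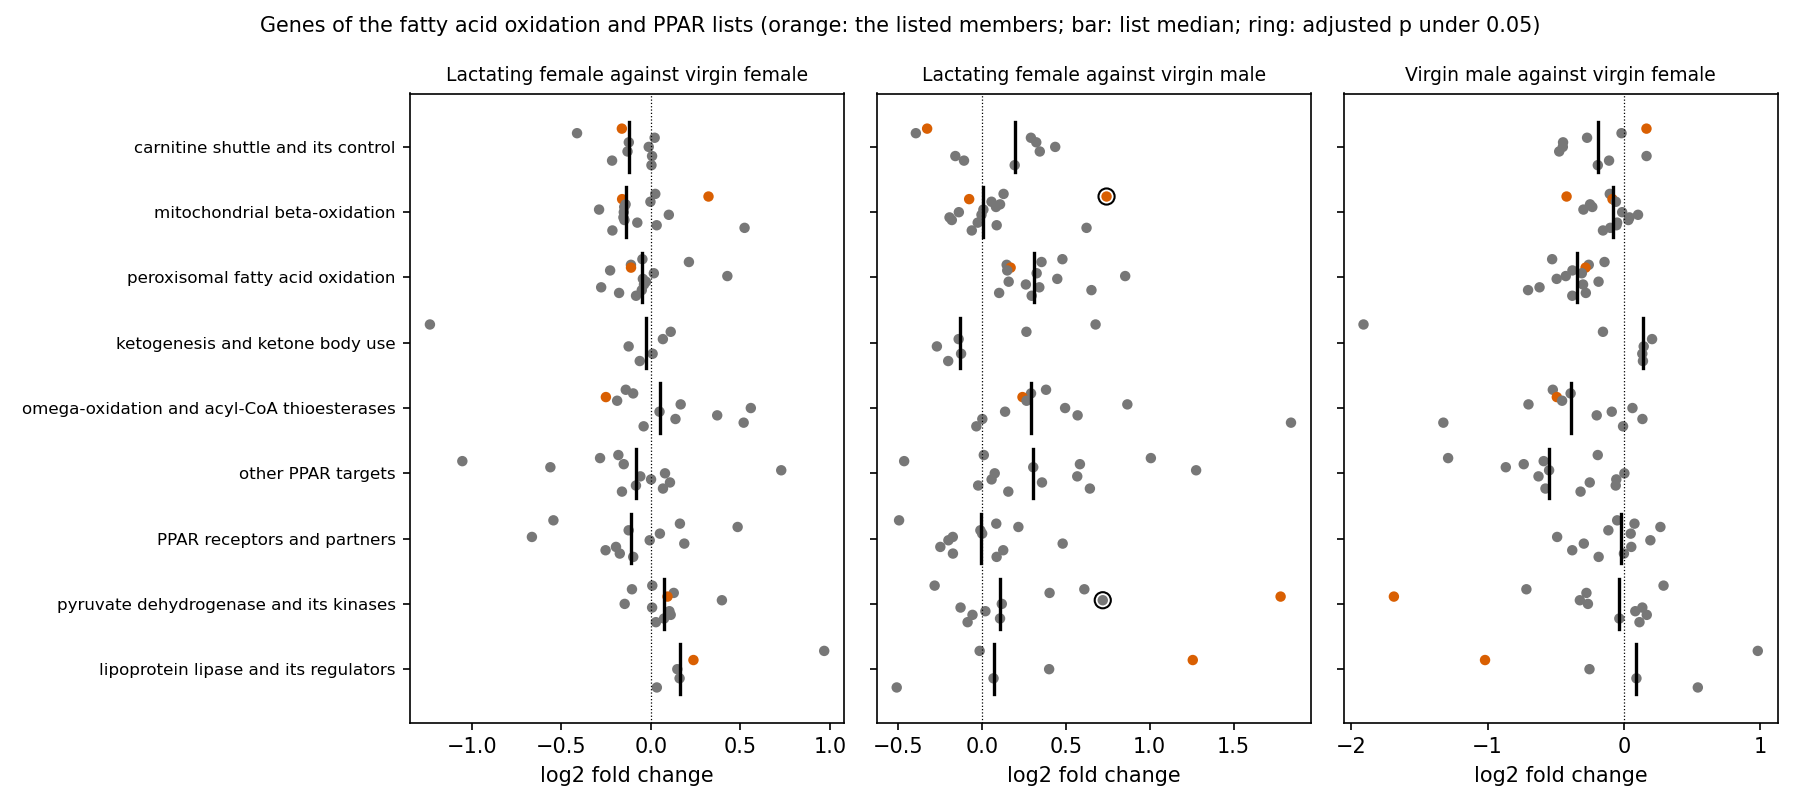
Log2 fold change of the 96 tested genes of 9 fatty acid oxidation and PPAR lists in 3 comparisons, with a bar at each list's median, the 7 tested genes of the 8 followed here in orange and a ring around called genes. Rings mark Acadl and Pdp1 in lactating females against virgin males, and all 14 peroxisomal genes lie right of 0 there and left of 0 in virgin males against virgin females.

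Over all 9 lists, 96 of 111 listed genes were tested. In lactating females against virgin males 2 were called higher (Acadl and Pdp1) and 0 lower, beside 0.764% of all genes called. At an unadjusted p under 0.05, 22 were higher and 2 lower, beside 10.5% and 5.4% of all genes. In virgin males against virgin females 0 were called, beside 0.0835% of all genes, with 0 higher and 20 lower at that threshold, beside 2.3% and 6.02%. In lactating females against virgin females 0 were called, beside 0.0578% of all genes, with 6 higher and 5 lower, beside 3.4% and 3.04%. Nothing is read from these shares, since the lists were chosen with earlier results known. With the enterocyte score in the fit, the 22 higher and 2 lower became 5 and 7, with 0 called, and the 20 lower became 2, beside 2 higher. In lactating against virgin females, the 6 higher and 5 lower became 6 and 10 with that score, and 1 gene was called (Vnn1, adjusted p = 0.0237). The shares of all genes at the unadjusted threshold with that score in the fit are not given here. Of the 15 listed genes that were not tested, Abcd2, Cyp4a12b, Rxrg and Gpihbp1 had 0 counts in all 18 libraries, and Fgf21, a hormone that the fasting liver makes, had 5 counts in all.

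Of the 6 listed genes of ketone body formation and use, all tested, 0 were called in any comparison. Acat1, the thiolase that forms and splits acetoacetyl-CoA, was at -0.27 in lactating females against virgin males (SE 0.11, adjusted p = 0.254), and Bdh1, which interconverts the ketone bodies, at 0.21 in virgin males against virgin females (SE 0.13, adjusted p = 0.572).

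Of the receptors, Ppard was the most abundant per length at 19.8 RPKM, above Ppara at 7.29 RPKM and Pparg at 1.71 RPKM (means of 18 libraries). Ppara averaged 21.7 ± 8.73 CPM in lactating females, 30.6 ± 3.07 CPM in virgin males and 31.6 ± 11.5 CPM in virgin females, at -0.54 in lactating against virgin females (SE 0.24, adjusted p = 0.732). Pparg averaged 5.87 ± 1.46 CPM in lactating females, 5.05 ± 0.61 CPM in virgin males and 4.20 ± 0.78 CPM in virgin females, and 6 of 6 lactating libraries exceeded the virgin female mean (0.48, SE 0.16, adjusted p = 0.524). Ppard differed by 0.16 in the same comparison (adjusted p = 0.915).

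Ppargc1a, the coactivator PGC-1α that works with PPARs on mitochondrial genes, was the only listed gene whose lactating and virgin female libraries did not overlap. It ran from 23.9 to 39.4 CPM (median 32.0) in lactating females, 26.5 to 46.2 CPM (median 34.3) in virgin males and 40.7 to 79.8 CPM (median 45.3) in virgin females, so that the males overlapped both. No lactating library reached the lowest virgin female. These 2 groups did not overlap, in either direction, in 0.289% of all genes tested. The log2 fold change was -0.66 (SE 0.17) with an adjusted p of 0.271, and this p stayed above the threshold in 28 of 28 alternative settings (0.0608 to 0.691). Over these settings the fold change ran from -0.73 to -0.49. Virgin female 2, which stood apart in Gm42418, was the highest library at 79.8 CPM, with the next virgin female at 51.3 CPM. Ncor1, a corepressor of nuclear receptors, was at 0.48 in lactating females against virgin males (SE 0.14, adjusted p = 0.135). None of the 12 tested receptors and partners was called in any comparison.

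Other PPAR targets, a list of 16 genes of which 13 were tested, gave 0 calls in all 3 comparisons, with medians of -0.0831, 0.305 and -0.549 in lactating against virgin females, lactating females against virgin males and virgin males against virgin females. Fabp1, the liver-type fatty acid binding protein, averaged 469.8 ± 328 CPM in lactating females, 234 ± 97.2 CPM in virgin males and 572 ± 338 CPM in virgin females, at -1.29 in virgin males against virgin females (SE 0.46, adjusted p = 0.565) and from -1.48 to -0.33 over the 28 alternative settings. Cidec, a lipid droplet protein, was at 1.28 in lactating females against virgin males (SE 0.44, adjusted p = 0.195) and from 0.21 to 1.54 over those settings. Cd36, a fatty acid translocase, was at -1.05 in lactating against virgin females (SE 0.47, adjusted p = 0.736), and Vnn1, a pantetheinase, at -0.56 (SE 0.27, adjusted p = 0.774). In virgin males against virgin females Vnn1 was at -0.87 (SE 0.27, adjusted p = 0.565), with 6 of 6 males below the virgin female mean. Cd36 and Vnn1 were thus lower and Cidec, at 0.73 (SE 0.43, adjusted p = 0.859), higher in lactating than in virgin females, with none of the 3 called.

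The levels of most of the 7 tested genes followed the enterocyte score across the 18 libraries. As a description, Pearson's r of log2 CPM with the score was 0.849 for Angptl4, 0.84 for Acadl and 0.824 for Ehhadh, 0.537 for Acadm, 0.519 for Pdk4 and 0.364 for Acot1. Cpt1a ran the other way, with r = -0.593 and r = 0.734 with the score of 10 crypt stem cell markers. The points share a library, so depth, scaling and cell makeup move all of them together. Taken as deviations from the group means, r with the enterocyte score was 0.783 for Angptl4, 0.845 for Acadl, 0.81 for Ehhadh and -0.455 for Cpt1a. Without the 2 libraries farthest from the median score, r over the rest was 0.752 for Angptl4, 0.821 for Acadl, 0.748 for Ehhadh and -0.487 for Cpt1a. Within the 6 lactating females r was 0.985 for Acadl, within the 6 virgin males 0.676 and within the 6 virgin females 0.834.

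**Figure D4:**
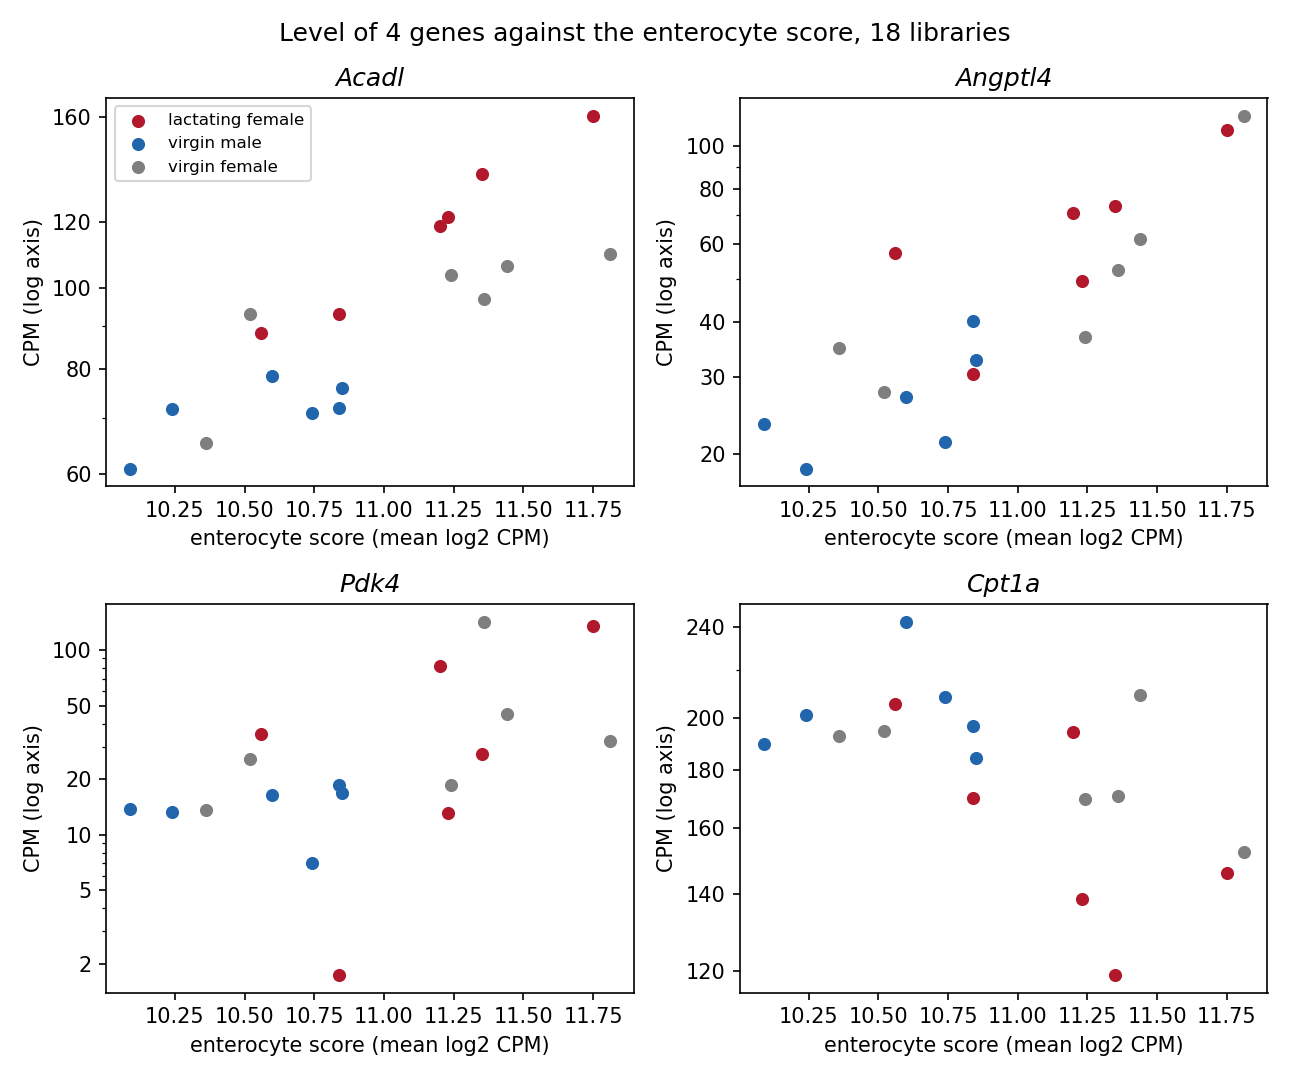
CPM (log axis) of Acadl, Angptl4, Pdk4 and Cpt1a against the enterocyte score (mean log2 CPM of 10 markers) in 18 libraries, coloured by group. Acadl and Angptl4 climb with the score (r of 0.84 and 0.849) and Cpt1a falls (r of -0.593). Lactating females 2 and 3, with scores of 10.56 and 10.84 within the male range, lie above the virgin males in Acadl. The other lactating females score above that range.

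How the 7 genes varied with each other was read from deviations from the group means over the 18 libraries and is given without a test. Angptl4, Ehhadh, Acadm and Acadl varied together, with r from 0.587 (Ehhadh with Acadl) to 0.796 (Angptl4 with Ehhadh). Pdk4 and Acot1 varied together at r = 0.828. Their r with the genes just named ran from 0.0826 (Acot1 with Acadm) to 0.646 (Pdk4 with Angptl4), so these were not separate sets. Cpt1a was negatively related to Acadl (-0.454) and Acadm (-0.404), at -0.312 with Angptl4, near 0 with Pdk4 (-0.0102) and Ehhadh (-0.0599), and at 0.448 with Acot1.

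**Figure D5:**
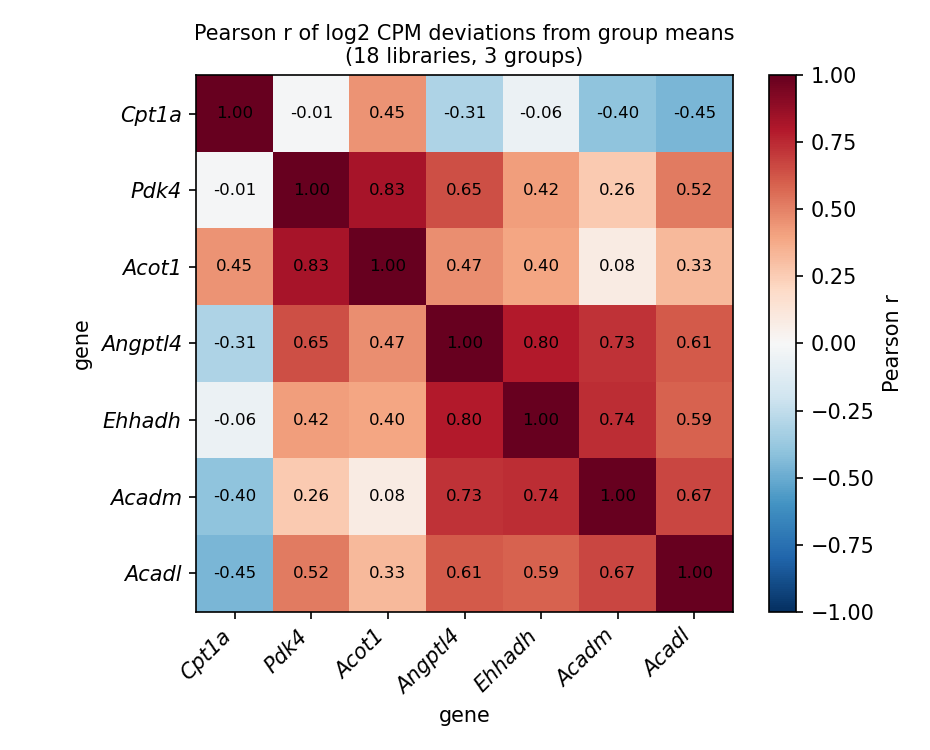
Pearson's r between each pair of the 7 tested genes, computed on log2 CPM after subtracting each group's mean, over 18 libraries in 3 groups. The block from Angptl4 to Acadl is positive throughout (0.587 to 0.796), Pdk4 with Acot1 is at 0.828, and Cpt1a is negative with 5 of the other 6 genes and positive with Acot1 (0.448).

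Of 9379 other genes averaging at least 5 CPM (genes known only by a predicted-gene symbol left out), those whose log2 CPM was most alike to the mean z-score of the 7 genes over the 18 libraries were Fam213a (r = 0.928), Plekhf1 (0.926), Fmo5 (0.922), Dhrs3 (0.921) and Aldh3a2 (0.908). For single genes, the closest were Nid2 (0.894) and Ccdc88c (0.889) for Cpt1a, Ago4 (0.918) and Cyp2d26 (0.915) for Pdk4, and Spred2 (0.878) and Slc25a37 (0.876) for Acot1. For Angptl4 they were Cyp4f13 (0.917) and Slc5a6 (0.913), for Ehhadh Abcd3 (0.957) and Slc25a45 (0.946), and for Acadm Fbp2 (0.932) and Ogfod3 (0.923). For Acadl they were Slc52a2 (0.93) and Rfk (0.929).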

How the data were processed

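The authors deposited 1 table of raw read counts per library, with an Ensembl identifier and a whole-number count for each of 47729 genes. Per the submitters' processing notes, the build was GRCm38 and the tools included FastQC 0.11.5, HISAT2 2.0.4, featureCounts, Subread 2.0.0 and DESeq2 1.24.0. Which annotation release and strand setting were used, and how multi-mapping reads were counted, is not given in the sources used here, so reads of overlapping genes and near-identical copies may be mixed. Per the labels' protocols, a directional kit with poly(A) enrichment was used. Gene symbols, exon lengths and positions came from GENCODE M21 (GRCm38), which matched 47310 identifiers.

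Counts were tested in edgeR 4.0.16 under R 4.3.3: filterByExpr kept 15572 genes, TMM factors scaled the libraries, and the quasi-likelihood fit took all 18 libraries with 3 group means. P-values were adjusted by Benjamini-Hochberg over these genes, and called means an adjusted p under 0.05. The SE was derived from the fold change and its F statistic. Scores are mean log2 CPM with a prior count of 2. A floor of 3 counts covers counting error only, since reads carried no molecular identifiers. On simulated counts with 200 changed genes the procedure recovered 31.7% of 1.5-fold, 58% of 2-fold and 88.7% of 3-fold changes between lactating females and virgin males. It recovered 40.2%, 76.3% and 84.7% between lactating and virgin females, and 26.3%, 65.1% and 85% between virgin males and virgin females. Each comparison had a single draw, so differences between these shares may come from the draw. Genes were simulated independently, without the shared shift along the crypt to villus axis, so recovery in the real libraries may differ. All 153 library pairs differed by more than sampling noise (lowest chi-square per degree of freedom 35.8).

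Correlations between libraries with the same replicate number were computed, and the main fit did not treat the numbers as pairs. The 28 alternatives were other scaling, testing and filters (limma 3.58.1, DESeq2 1.42.0), the 2 groups alone, a replicate block, the cell cycle or enterocyte score as covariate, and libraries left out. For each comparison, 6 of them left out a library of the group not compared. Such a fit hardly moves the fold change, so counts over the 28 are not counts of 28 separate checks. Figures were drawn with matplotlib 3.10.9. Besides the 8 genes, the text names in each of the 9 lists every called gene and genes from the 3 with the smallest p per comparison, plus Ppara, Ppard and Pparg. Some listed genes are counted in their lists and are not reported here by name. The genes and lists were chosen with earlier results of these data known. Acot2, Lpl and untested copies are named as relatives or partners of the 8 genes.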

Additional observations from a re-analysis of the deposited data

Results flagged for a closer look

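In 36 sets of 6 libraries (12 genes in 3 groups), 2 held a library far from the other 5. A rate of about 1 in 20 by chance holds for independent sets, and these sets share libraries. The number is therefore not set against chance. Pdk4 stood at 142 CPM in virgin female 2, with the next virgin female at 44.9 CPM and the lowest at 13.6 CPM. Ppard stood at 108.5 CPM in the same library, with the next at 142.7 CPM and the highest at 150.4 CPM. Ppargc1a and Acot12 were not among the 12 genes. Ppargc1a stood at 79.8 CPM in virgin female 2, with the next virgin female at 51.3 CPM. Acot12 stood at 163 CPM in lactating female 1, with the next lactating female at 67.6 CPM. Virgin female 2 was also the highest of the 18 libraries for Ppara (52.7 CPM) and Ppargc1a (79.8 CPM), and it had 31050 CPM of Gm42418. The part of that difference in these values was not tested.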

How the results depend on the processing

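Acadl in lactating females against virgin males kept its direction in 28 of 28 alternatives (0.43 to 0.82) and its call in 25. The 7 tested genes gave 1 call there, 2 with DESeq2's Wald test, the 2 groups alone, limma-voom with sample weights, the replicate block or the cell cycle score, 0 with the enterocyte score or without virgin female 2 and virgin male 6 together, and 0 to 2 with any library left out. Genes called in that comparison numbered 119, with 410 by DESeq2, 217 by limma-voom, 66 with the enterocyte score, 61 without both libraries and 62 to 311 with a library left out. In lactating against virgin females 9 were called, with 69 by DESeq2, 15 at 1 CPM or more in 6 libraries, 1 with the 2 groups alone, 2 by limma-voom, 1 with the replicate block, 60 with the cell cycle score, 46 with the enterocyte score, 1 without both libraries and 2 to 16 with a library left out. In virgin males against virgin females 13 were called, with 30 by DESeq2, 20 with no filter, 20 by limma-voom and 10 to 18 with a library left out. Among the 7 tested genes, signs turned only for uncalled differences. Pdk4 in lactating against virgin females was at -0.24 by limma-voom, -0.20 with the replicate block, -0.037 with the enterocyte score and -0.53 to 0.87 with a library left out. Acadm in virgin males against virgin females was at 0.039 with the cell cycle score, 0.095 with the enterocyte score and -0.13 to 0.0082 with a library left out. Ehhadh with the enterocyte score was at -0.11 in lactating females against virgin males and 0.010 in virgin males against virgin females, and at -0.18 to 0.014 in lactating against virgin females with a library left out. Of 45 other genes picked from the lists by the naming rule, 28 kept their sign in every alternative and 17 turned in at least 1, a count that was the same in each comparison. The causes were not tested. Over 18 pairs of same-numbered libraries, r between their deviations ran from -0.219 to 0.477. Its median was 0.0391, against -0.0448 for differently numbered pairs, and 5 libraries were most alike to a library of their own number. Whether the numbers mark a shared batch or day was not tested.

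The 6 libraries per group limit what can be called: the self-test missed most 1.5-fold changes. Acot1 and Cyp4a10 are limited by few counts and near-identical copies. The mean enterocyte score was lower in virgin males (10.6) than in lactating females (11.2) and virgin females (11.1), a difference that was not tested.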
